A study of Mus musculus with 18 samples.

Results

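TN-783, described in the labels as an inhibitor of NLRP3, was given to 6 diet-induced obese (DIO) mice and its vehicle to another 6, and the RNA of each hypothalamus was sequenced. These 12 libraries were chosen by their titles and are 12 of 18 in the series; the other 6 come from lean mice. The TN-783 mice were male wild-type C57BL/6JGpt animals, 7 months old in the deposited sample table, whose high-fat feeding began at 6 weeks of age and lasted 16 weeks or longer. They received 50 mg/kg by oral gavage, 2 doses a day, for 29 days according to the labels and 28 days according to the deposited table. The vehicle mice had the same sex, strain, age, diet and gavage schedule without the compound, and both DIO groups had first been accustomed to gavage with vehicle for 14 days. Lean mice of that sex, strain and age ate chow and were not dosed, and the labels do not say whether they shared the gavage period. No engineered allele is given for any group. The comparison asks what the compound did to hypothalamic transcripts in obesity. Each library is bulk tissue, so fewer cells of a type and less RNA per cell cannot be told apart.

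NLRP3 is a cytosolic sensor that, on danger signals, binds the adaptor ASC (gene Pycard) and the protease caspase-1 to form the inflammasome. Caspase-1 then cuts the precursors of interleukin-1 beta and interleukin-18 and the pore-forming protein gasdermin D. In the brain the complex is best known from microglia. The hypothalamus holds the neurons that set food intake, among them the AgRP and NPY neurons of the arcuate nucleus, which promote feeding, and the POMC neurons beside them, which restrain it.

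Library totals were 1993457 to 3589654 counts in TN-783 mice, 1699650 to 2761378 in vehicle mice and 2069960 to 3695646 in lean mice. RNA integrity scores were 9.6 to 9.7 in TN-783, 9.5 to 9.9 in vehicle and 9.4 to 10.0 in lean samples. All 10 marker genes of hypothalamic neurons were tested and had counts in each group, and their summed level had a median of 486 CPM in TN-783, 566 CPM in vehicle and 552 CPM in lean libraries, where CPM is the counts of a gene scaled to the size of its library in tested genes. Vehicle replicates 2 and 4 stood apart. They held 7342 and 3709 CPM of that sum, which includes Pomc, and without them the vehicle median was 459 CPM, below that of TN-783. They carried transcripts of the pituitary gland, which hangs below the hypothalamus: 8 pituitary markers summed to 3905 and 3490 CPM in these 2 libraries, which had counts of all 8. The sum was 7.55 to 97.3 CPM in TN-783 libraries and 6.11 to 17.0 CPM in the other 4 vehicle libraries, where Lhb and Ghrhr had no count. Results are therefore given with all libraries and without those 2.

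No gene passed the test in either fit. With all libraries, 0 of 11835 genes (0%) had an adjusted p under 0.05 (edgeR quasi-likelihood test, Benjamini-Hochberg adjustment), and DESeq2 also called 0. Without vehicle replicates 2 and 4, 0 of 12107 genes (0%) passed, and DESeq2 again called 0. With all libraries 309 genes, 2.61% of those tested, had an unadjusted p under 0.05, of which 121 (1.02%) were higher in TN-783 and 188 (1.59%) lower. Evenly spread p-values would put 592 genes there. Without the 2 libraries the count was 258 (2.13%), with 142 (1.17%) higher and 116 (0.958%) lower, where even spread would give 605. DESeq2 gave 272 genes at that level with all libraries and 196 without the 2. The size of this shortfall varied with the setting, and none of those given next reached the even spread. The replicate number as a block gave 241 genes with all libraries and 216 without the 2. Weighted voom gave 384 and 414, and RNA integrity as a covariate 407 and 359. A surrogate variable, estimated from the data, as a covariate gave 556 and 487. In both fits the histogram of p-values rises towards 1.

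**Figure D1:**
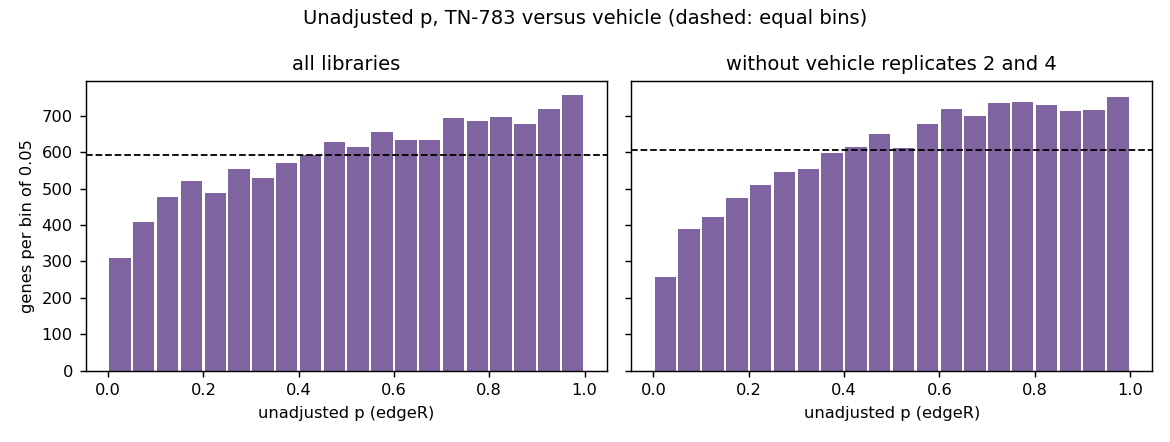
Number of tested genes in each bin of unadjusted p (edgeR, TN-783 versus vehicle), with all libraries on the left and without vehicle replicates 2 and 4 on the right; the dashed line is an even spread. The lowest bins hold 309 and 258 genes and lie under the line.

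The precision of these fits bounds what could be seen. The median standard error of a log2 difference was 0.172 with all libraries and 0.195 without the 2. The 95% confidence interval of the difference, not adjusted for the number of genes, lay wholly within a 2-fold change up or down for 94.5% of tested genes with all libraries and for 89.8% without the 2. It lay within a 1.5-fold change for 67.6% and 57.6% of them. Genes below the expression filter were not part of these fits. With the filter removed, 6 genes were called with all libraries and 4 without the 2. Not all of these had been below the filter. Without the 2, Agrp and Slc17a7 were tested with the filter at log2 differences of 1.54 (SE 0.53) and -1.57 (SE 0.54). With no filter they were at 1.56 (SE 0.33) and -1.56 (SE 0.34), so mainly their standard errors changed.

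Which genes led the ranking differed between the fits with and without the 2 libraries. Of the 188 genes that were lower at an unadjusted p under 0.05, 87 (46.3%) had vehicle replicates 2 and 4 as their highest 2 libraries of the 12, against 3.64% of all tested genes. Of the 121 higher genes, 14 (11.6%) had them as the lowest 2, against 2.11% of all tested genes. Genes picked as lower or higher have vehicle libraries at that extreme by selection, so all tested genes are not a like baseline. Other pairs of vehicle libraries were not compared, so these shares cannot single out replicates 2 and 4. Among the lower genes 38 were also lower at that level without these libraries, which is 20.2% of the first list and 32.8% of the second. Among the higher genes the shared number was 48, or 39.7% and 33.8%. The 2 fits share 10 of their 12 libraries, so this overlap is a description.

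The transcripts of the inflammasome itself were at the detection limit. Nlrp3 (ENSMUSG00000032691) had 4 counts summed over the 6 TN-783 libraries and 6 over the vehicle libraries. Il1b, the interleukin-1 beta gene, had 6 in TN-783 and 8 in vehicle. Casp1 had 9 in TN-783 and 12 in vehicle, Gsdmd had 5 in TN-783 and 3 in vehicle, and the adaptor gene Pycard had 39 in TN-783 and 22 in vehicle. All 5 were too low for the expression filter. Without a filter their log2 differences had standard errors of 0.46 for Pycard to 0.96 for Gsdmd, and the adjusted p was at least 0.716 with all libraries. With standard errors of this size, a 2-fold difference in any of these 5 genes was not detectable at the adjusted threshold.

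Of the 16 genes in the inflammasome list, 6 were tested, with 3 higher and 3 lower in either fit and a median log2 difference of 0.01 with all libraries and 0.02 without the 2. Il18, the interleukin-18 precursor gene, ranged over 25.0, 33.0 and 36.2 CPM (lowest, median, highest) in TN-783 and 24.6, 36.8 and 40.9 CPM in vehicle mice. All 6 TN-783 values lay within the vehicle range, and the log2 difference was -0.10 (SE 0.15) with all libraries and -0.11 (SE 0.16) without the 2. Nek7, a kinase that NLRP3 needs for assembly, had a median of 82.8 CPM in TN-783 and 99.9 CPM in vehicle mice, and differed by -0.23 on the log2 scale (SE 0.20), or by -0.21 (SE 0.22) without the 2. Aim2, the sensor of cytosolic DNA in another inflammasome, had a median of 5.59 CPM in TN-783 and 2.90 CPM in vehicle mice (log2 difference 0.50, SE 0.32, and 0.39, SE 0.37, without the 2), with overlapping ranges. Txnip, whose product binds thioredoxin, had 14.8, 23.7 and 34.5 CPM in TN-783 and 10.6, 36.1 and 91.8 CPM in vehicle mice. Its log2 difference of -0.81 (SE 0.38) became -0.15 (SE 0.31) without vehicle replicates 2 and 4, of which replicate 2 held the 91.8 CPM.

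Most downstream inflammatory genes were too low to test. Of 20 NF-kB and cytokine genes 8 were tested, 3 higher and 5 lower with all libraries (median log2 difference -0.11), and 2 higher and 6 lower without the 2 (median -0.04). Tnf, Il6 and Ccl2 were among those too low to test. Ikbkb, the kinase that releases NF-kB from its inhibitor, ranged over 12.1, 14.4 and 25.4 CPM in TN-783 and 18.3, 19.96 and 24.5 CPM in vehicle mice. In 4 of 6 TN-783 libraries it lay below every vehicle library, while TN-783 replicate 4 exceeded every one. The log2 difference was -0.37 (SE 0.16, unadjusted p = 0.0340) with all libraries and -0.41 (SE 0.19) without the 2. The other gene of smallest p in the list, Il1rap, a co-receptor of interleukin-1, was at -0.42 (SE 0.28) with all libraries and -0.36 (SE 0.33) without the 2. Nfkbia, the NF-kB inhibitor, was at -0.20 (SE 0.16) and -0.08 (SE 0.18).

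Antigen-presentation genes depended on the 2 libraries. All 7 tested genes of 14 were higher in TN-783 without vehicle replicates 2 and 4 (median log2 difference 0.14), and 4 of 7 with all libraries (median 0.00). Tap1, which carries peptides to class I molecules, ranged over 3.24, 7.02 and 9.14 CPM in TN-783 and 1.81, 3.95 and 5.34 CPM in vehicle mice. The ranges overlapped, and 5 of 6 TN-783 libraries lay above the vehicle median. Its log2 difference was 0.81 (SE 0.29, unadjusted p = 0.00948) with all libraries and 1.15 (SE 0.34, unadjusted p = 0.00278) without the 2. H2-D1, a class I heavy chain gene, had 24.2, 30.7 and 40.3 CPM in TN-783 and 21.3, 22.5 and 56.5 CPM in vehicle mice. Vehicle replicates 2 and 4 were its highest vehicle libraries, the other 4 lay between 21.3 and 22.6 CPM, below every TN-783 library, and the log2 difference was 0.05 (SE 0.20) with all libraries and 0.49 (SE 0.16) without the 2. Reads of class I genes can be split between near-identical copies, so this value is uncertain. Tapbp, the tapasin gene, was at -0.35 (SE 0.22) with all libraries and 0.05 (SE 0.22) without the 2. Interferon-response genes went the same way, with 5 of 12 tested genes higher with all libraries (median -0.04) and 9 of 12 without the 2 (median 0.13). Their 2 genes of smallest p pointed in opposite directions, Ifit2 at 0.28 (SE 0.24) and Ifit3 at -0.31 (SE 0.26) with all libraries, and at 0.32 (SE 0.29) and -0.27 (SE 0.30) without the 2.

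Of the complement genes, C4b, a component of the classical pathway, was at -0.38 (SE 0.19) with all libraries and -0.42 (SE 0.21) without the 2. The C1q chains, made by microglia, were at 0.11 (SE 0.16) for C1qa, 0.12 (SE 0.18) for C1qb and 0.17 (SE 0.21) for C1qc with all libraries, and at 0.09 (SE 0.19), 0.01 (SE 0.20) and 0.08 (SE 0.23) without the 2. The tested list split 3 higher and 3 lower in both fits.

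Microglial and astrocyte identity genes had medians near 0, and the number of astrocyte genes in each direction depended on the 2 libraries. Of 18 homeostatic microglial genes 8 were higher and 10 lower with all libraries (median -0.01), and 10 higher and 8 lower without the 2 (median 0.00). Of 18 astrocyte identity genes 11 were higher and 7 lower with all libraries (median 0.01), against 3 higher and 15 lower without the 2 (median -0.04). Aif1, the gene of the microglial protein IBA1, had 5.26, 8.54 and 11.9 CPM in TN-783 and 3.56, 7.35 and 8.55 CPM in vehicle mice, and differed by 0.33 on the log2 scale (SE 0.34), or by 0.21 (SE 0.39) without the 2. Its 95% interval with all libraries ran from -0.37 to 1.04. Tmem119 was at 0.30 (SE 0.22) with all libraries and 0.19 (SE 0.25) without the 2, and Tyrobp, a signalling adaptor, at 0.23 (SE 0.21) and 0.34 (SE 0.24). Gfap, the intermediate filament of astrocytes, had 65.0, 85.0 and 99.9 CPM in TN-783 and 55.6, 81.2 and 106 CPM in vehicle mice. The ranges lay almost on top of each other, and the log2 difference was 0.04 (SE 0.20), with an interval of -0.37 to 0.45, and 0.09 (SE 0.22) without the 2. Of 8 reactive-astrocyte genes 6 were higher in both fits, with medians of 0.05 and 0.17, led by Cd44, a hyaluronan receptor gene, at 0.41 (SE 0.22) with all libraries and 0.66 (SE 0.25) without the 2.

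Disease-associated microglial genes show how the 2 libraries enter a list. Spp1, the osteopontin gene, had 3.94, 7.75 and 9.78 CPM in TN-783 and 5.49, 9.92 and 44.96 CPM in vehicle mice, and vehicle replicates 2 and 4 held 38.6 and 44.96 CPM. Its log2 difference was -1.53 (SE 0.49) with all libraries and -0.25 (SE 0.31) without the 2. Lpl, the lipoprotein lipase gene, was at -1.16 (SE 0.42) with all libraries and -0.04 (SE 0.32) without the 2. The other 10 tested genes of that list lay between -0.58 (Lyz2) and 0.29 (Cd68) with all libraries and between -0.25 and 0.22 (the same genes) without the 2.

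**Figure D2:**
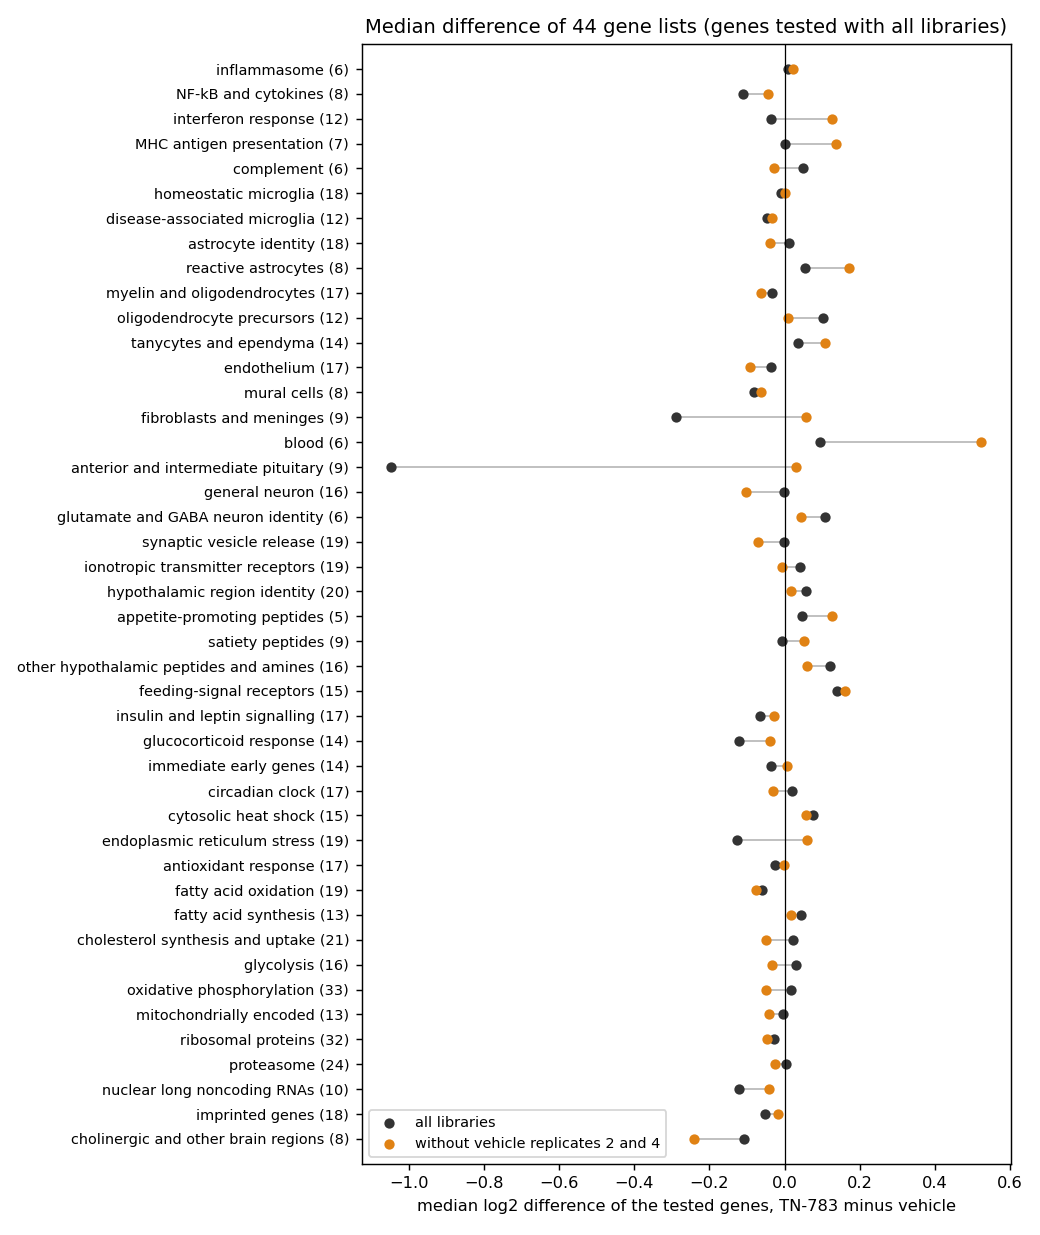
Median log2 difference (TN-783 minus vehicle) of each of 44 gene lists with at least 4 tested genes, with the number tested with all libraries in brackets; dark points use all libraries and orange points leave out vehicle replicates 2 and 4. The pituitary list lies at -1.05 with all libraries and at 0.03 without the 2, and the fibroblast list at -0.29 and 0.06, while most lists lie within 0.2 of 0 in both fits.

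Of the feeding peptides other than Pomc, which is described with the pituitary genes, Agrp (ENSMUSG00000005705) had the largest log2 difference in both fits. Its levels were 19.2, 7.40, 8.44, 1.08, 8.08 and 11.04 CPM in TN-783 replicates 1 to 6, against 3.05, 8.01, 2.42, 4.01, 5.94 and 0.926 CPM in vehicle replicates 1 to 6. In 5 of 6 TN-783 libraries it lay above the vehicle median, replicate 4 lay near the bottom of the vehicle range, and the groups overlapped. The log2 difference was 1.11 (SE 0.43, 95% interval 0.21 to 2.02, unadjusted p = 0.0178) with all libraries and 1.54 (SE 0.53, interval 0.43 to 2.65, unadjusted p = 0.00910) without the 2. It passed the adjusted threshold only when the filter on low counts was removed and the 2 libraries were left out (1.56, adjusted p = 0.0377). Npy, which the same neurons make, had 15.6, 30.5 and 49.4 CPM in TN-783 and 14.5, 23.5 and 40.7 CPM in vehicle mice. Its log2 difference was 0.36 (SE 0.36) with all libraries and 0.39 (SE 0.44) without the 2. TN-783 replicate 4 was the lowest TN-783 library for both genes.

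The remaining appetite-promoting peptides had smaller log2 differences than Agrp, a contrast that was not tested. Pmch, the gene of melanin-concentrating hormone from the lateral hypothalamus, had 111, 149 and 196 CPM in TN-783 and 132, 178 and 220 CPM in vehicle mice, with a log2 difference of -0.24 (SE 0.13) with all libraries and -0.30 (SE 0.14) without the 2. Hcrt, the orexin gene, was at -0.31 (SE 0.34) with all libraries and -0.45 (SE 0.38) without the 2, and Gal, the galanin gene, at 0.05 (SE 0.17) and 0.13 (SE 0.20). The satiety peptide gene Cartpt had 51.8, 73.9 and 88.4 CPM in TN-783 and 56.5, 71.3 and 75.0 CPM in vehicle mice, a difference of 0.09 (SE 0.12) with an interval of -0.16 to 0.34, and of 0.05 (SE 0.14) without the 2. Nucb2, the nesfatin precursor gene, was at -0.31 (SE 0.22) with all libraries and -0.05 (SE 0.25) without the 2.

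Most tested receptors of feeding signals had higher values in TN-783, and none was called. Of 20 genes 15 were tested with all libraries, 12 higher and 3 lower, with a median log2 difference of 0.14, and without the 2 libraries 14 of 16 were higher with a median of 0.16. The median over all tested genes was -0.0047 in each fit. Leaving out single libraries gave list medians of 0.050 (without TN-783 replicate 6) to 0.18 (without vehicle replicate 4). The median was also more than 1.5 times smaller without TN-783 replicate 5 (0.093) and without vehicle replicate 2 (0.081). Calcr, the calcitonin receptor through which amylin acts, had 11.9, 18.0 and 27.2 CPM in TN-783 and 8.47, 12.3 and 18.2 CPM in vehicle mice, with a difference of 0.59 (SE 0.25, unadjusted p = 0.0290) and 0.56 (SE 0.30) without the 2. Cckbr, a cholecystokinin receptor gene, had 3.48, 5.22 and 7.01 CPM in TN-783 and 1.78, 3.15 and 5.44 CPM in vehicle mice. All 6 of its TN-783 libraries lay above the vehicle median, and the difference was 0.62 (SE 0.29, unadjusted p = 0.0402), or 0.49 (SE 0.32) without the 2. The NPY receptor genes Npy1r, Npy2r and Npy5r were at 0.16 (SE 0.22), 0.25 (SE 0.17) and 0.38 (SE 0.33) with all libraries, and at 0.23 (SE 0.24), 0.28 (SE 0.20) and 0.58 (SE 0.39) without the 2. The melanocortin receptor gene Mc4r was at 0.05 (SE 0.26) and 0.22 (SE 0.30), and the GLP-1 receptor gene Glp1r at 0.00 (SE 0.37) and 0.09 (SE 0.43). The leptin receptor gene Lepr, with 11 counts over the TN-783 libraries and 15 over the vehicle libraries, was not tested.

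**Figure D3:**
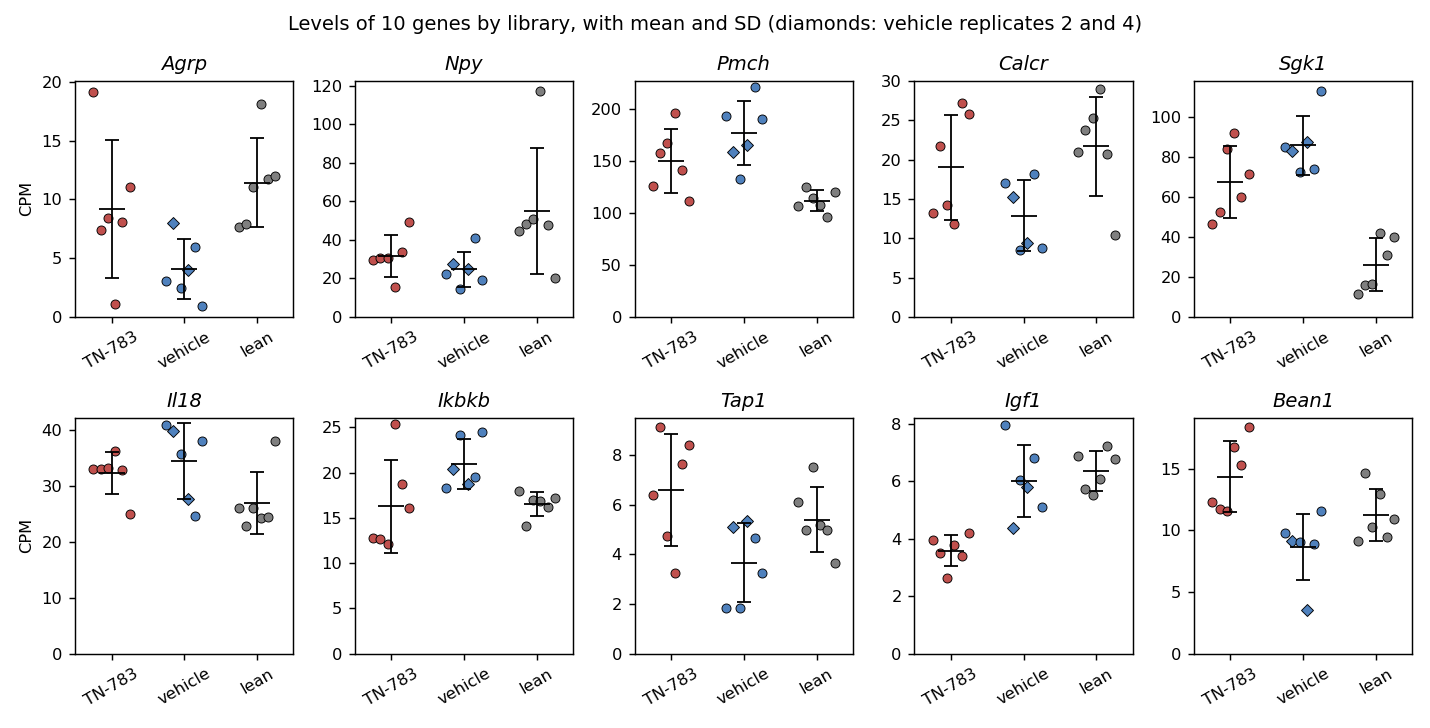
CPM of 10 genes in each library of the TN-783, vehicle and lean groups (points; diamonds are vehicle replicates 2 and 4), with the mean and SD of each group in black. Igf1 lies below and Bean1 above the vehicle range in TN-783 libraries, and the TN-783 and vehicle ranges overlap for the other 8 genes.

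Other hypothalamic peptide and amine genes were higher in 12 of 16 with all libraries (median 0.12) and in 10 of 17 without the 2 (median 0.06). Hdc, the histamine-synthesising enzyme of the tuberomammillary nucleus, had 18.3, 25.5 and 39.4 CPM in TN-783 and 18.9, 20.1 and 28.4 CPM in vehicle mice (log2 difference 0.23, SE 0.20, and 0.23, SE 0.23, without the 2). Penk, the enkephalin precursor gene, was at 0.15 (SE 0.14) with all libraries and 0.07 (SE 0.16) without the 2. Among region-identity genes, Fezf1, a transcription factor of the ventromedial nucleus, was at 0.46 (SE 0.19, unadjusted p = 0.0235) with all libraries and 0.38 (SE 0.22) without the 2. Six6, a transcription factor gene that the pituitary also expresses, was at -0.99 (SE 0.41) and -0.07 (SE 0.35).

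Glucocorticoid-response genes were lower in 10 of 14 in both fits, with a median log2 difference of -0.12 with all libraries and -0.04 without the 2. Sgk1, a kinase gene induced by glucocorticoids, had 46.2, 65.7 and 92.3 CPM in TN-783 and 72.6, 84.0 and 113 CPM in vehicle mice. The groups overlapped and 5 of 6 TN-783 libraries were below the vehicle median, with a difference of -0.35 (SE 0.24) with all libraries and -0.35 (SE 0.29) without the 2. Errfi1, a feedback inhibitor of EGF receptors, was at -0.29 (SE 0.17) and -0.22 (SE 0.20). Fkbp5 and Tsc22d3, both glucocorticoid targets, were at -0.29 (SE 0.22) and -0.04 (SE 0.17) with all libraries and at -0.05 (SE 0.21) and -0.03 (SE 0.19) without the 2.

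Stress and metabolic lists had medians of -0.13 to 0.08 with all libraries and -0.08 to 0.06 without the 2. Endoplasmic reticulum stress genes were higher in 6 of 19 with all libraries (median -0.13) and in 11 of 19 without the 2 (median 0.06). Herpud1, of the degradation machinery of that compartment, was at -0.29 (SE 0.11, unadjusted p = 0.0189) with all libraries and -0.16 (SE 0.12) without the 2. Cytosolic heat shock genes were higher in 12 of 15 with all libraries (median 0.08) and in 11 of 15 without the 2 (median 0.06), while the co-chaperone gene Bag3 was at -0.31 (SE 0.14) with all libraries and -0.06 (SE 0.14) without the 2. Medians were 0.03 for glycolysis, 0.02 for oxidative phosphorylation, -0.06 for fatty acid oxidation and 0.02 for cholesterol synthesis and uptake with all libraries, and -0.03, -0.05, -0.08 and -0.05 without the 2. Fdps, an enzyme of the cholesterol pathway, was at 0.34 (SE 0.19) with all libraries and 0.52 (SE 0.20) without the 2. Ribosomal protein genes had medians of -0.03 and -0.05 and mitochondrially encoded genes medians of 0.00 and -0.04. Insulin and leptin signalling genes had medians of -0.06 and -0.03, with Ptpn2, a phosphatase gene, at -0.45 (SE 0.27) and -0.15 (SE 0.30).

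The balance of neuronal identity genes depended on the 2 libraries. General neuronal genes split 8 higher and 8 lower with all libraries (median 0.00) and 3 higher and 13 lower without the 2 (median -0.10). Eno2, the neuronal enolase gene, had 141, 164 and 199 CPM in TN-783 and 124, 137 and 168 CPM in vehicle mice, and its log2 difference was 0.23 (SE 0.12) with all libraries and 0.16 (SE 0.13) without the 2. The 6 tested genes of glutamate and GABA neuron identity were all higher with all libraries (median 0.11), and 4 of 7 were higher without the 2 (median 0.04). Gad1, which makes GABA, was at 0.25 (SE 0.13) and 0.16 (SE 0.14). Synaptic vesicle genes had medians of 0.00 and -0.07. Myelin and oligodendrocyte genes had medians of -0.03 and -0.06, with Mobp, a myelin gene, at -0.18 (SE 0.17) and -0.27 (SE 0.18), and oligodendrocyte precursor genes medians of 0.10 and 0.01. Among clock genes Arntl, the BMAL1 gene, was at -0.32 (SE 0.18) with all libraries and -0.19 (SE 0.20) without the 2, and the list had medians of 0.02 and -0.03. Of the immediate early genes Nr4a3, a nuclear receptor gene, was at -0.46 (SE 0.25) and -0.58 (SE 0.28), while Btg2 was at -0.74 (SE 0.32) with all libraries and 0.14 (SE 0.22) without the 2, and the list had medians of -0.04 and 0.01.

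The pituitary genes set the largest differences of the comparison. Prl (ENSMUSG00000021342), the prolactin gene, had 0, 2.93 and 30.2 CPM in TN-783 and 1.39, 8.45 and 1773 CPM in vehicle mice, with 1773 and 1273 CPM in vehicle replicates 2 and 4. Gh, the growth hormone gene, had 0, 1.95 and 22.9 CPM in TN-783 mice, against 1049 and 1026 CPM in vehicle replicates 2 and 4 and at most 3.705 CPM in the other vehicle libraries. The 2 libraries alone are far above all other 10 for both genes. The log2 difference of Prl was -5.61 (SE 1.55) with all libraries and 0.88 (SE 0.96) without the 2, and that of Gh was -5.67 (SE 1.59) and 1.64 (SE 1.23). Pomc, made by arcuate neurons and by corticotrophs and melanotrophs of the pituitary, had 10.3, 44.8 and 156 CPM in TN-783 mice, 6939 and 3275 CPM in vehicle replicates 2 and 4, and 9.26 to 32.7 CPM in the other 4 vehicle libraries. Its log2 difference was -4.88 (SE 1.47) with all libraries and 1.41 (SE 0.65, unadjusted p = 0.0485) without the 2, so the sign turned. How much Pomc RNA came from neurons in any library was not tested.

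Cga, which encodes the alpha subunit shared by the pituitary glycoprotein hormones and is also made in the pars tuberalis around the median eminence, had log2 differences of opposite sign in the 2 fits. It had 11.8, 22.2, 14.2, 3.24, 14.5 and 31.8 CPM in TN-783 replicates 1 to 6, 797 and 879 CPM in vehicle replicates 2 and 4, and 0.611, 3.63, 2.97 and 1.85 CPM in vehicle replicates 1, 3, 5 and 6. In 5 of 6 TN-783 libraries Cga lay above those 4. The log2 difference was -4.04 (SE 1.32) with all libraries and 2.87 (SE 0.74, unadjusted p = 0.00151) without the 2, and it was not called in either. Tshb, the thyrotropin beta subunit gene, had 69 counts over the 6 TN-783 libraries, 37 of them in replicate 6, and 950 over the vehicle libraries, of which 8 were outside replicates 2 and 4. The part of pituitary or pars tuberalis tissue in the Cga difference was not tested. Of the 9 tested pituitary genes of 19, 8 were lower with all libraries, 7 of them at an unadjusted p under 0.05, and 6 were higher without the 2, where the median was 0.03.

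**Figure D4:**
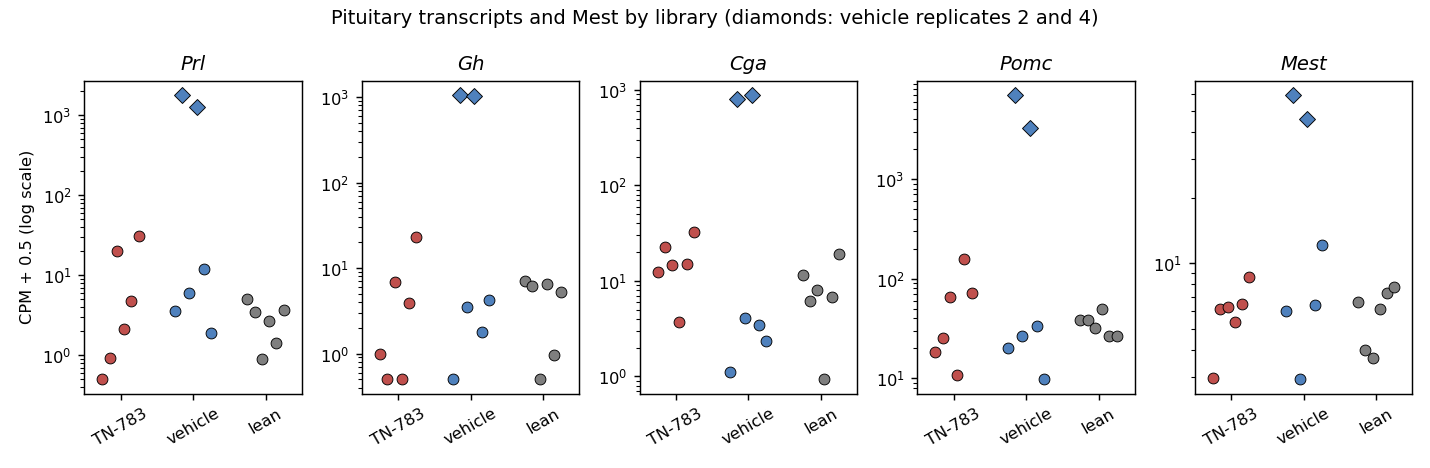
CPM plus 0.5 on a log scale for Prl, Gh, Cga, Pomc and Mest in each library of the TN-783, vehicle and lean groups. Vehicle replicates 2 and 4 (diamonds) lie above every other library for all 5 genes, with 1773 and 1273 CPM of Prl.

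The promoters of 3 of these genes are shown because the transcripts appear together in the same libraries while their upstream sequences differ. They are the 250 bases before the annotated start on the plus strand, from RefSeq on GRCm38.p6, at chr13:27057320-27057569 for Prl, chr4:34893529-34893778 for Cga and chr12:3954695-3954944 for Pomc. Capitals mark matches on either strand to ATGNATA, a core of the site of the pituitary factor Pit-1 (gene Pou1f1), and to TATAAA, the TATA box.
Prl: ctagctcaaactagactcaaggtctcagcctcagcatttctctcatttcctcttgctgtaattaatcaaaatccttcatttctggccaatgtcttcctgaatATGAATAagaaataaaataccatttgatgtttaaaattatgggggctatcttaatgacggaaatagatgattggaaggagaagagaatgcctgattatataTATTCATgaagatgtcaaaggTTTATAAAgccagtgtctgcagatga
Cga: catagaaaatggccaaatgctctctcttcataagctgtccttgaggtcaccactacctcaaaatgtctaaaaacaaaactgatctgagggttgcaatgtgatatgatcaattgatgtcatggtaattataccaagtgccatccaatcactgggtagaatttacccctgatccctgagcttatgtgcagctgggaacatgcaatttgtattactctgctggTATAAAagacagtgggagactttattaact
Pomc: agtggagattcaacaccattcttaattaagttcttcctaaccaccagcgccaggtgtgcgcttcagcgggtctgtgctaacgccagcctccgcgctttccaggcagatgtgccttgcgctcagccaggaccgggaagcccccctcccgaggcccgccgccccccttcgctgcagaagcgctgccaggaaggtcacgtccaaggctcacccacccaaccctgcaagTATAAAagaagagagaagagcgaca

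Prl, a gene of lactotrophs, has 2 matches to ATGNATA, which begin 148 and 47 bases before the start, the second on the minus strand, and its TATAAA matches on both strands overlap. Cga and Pomc have a TATAAA match each, 30 and 25 bases before the start, and none to ATGNATA in this window. Of 32851 promoters of that length, 7.92% hold ATGNATA and 12.4% hold TATAAA on either strand. A match is a run of letters and says nothing of binding.

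Several genes outside the pituitary list were high in the same 2 vehicle libraries. Mest, an imprinted gene, had 58.7 and 45.4 CPM in them, 2.46 to 8.15 CPM in TN-783 libraries and at most 11.6 CPM in the other vehicle libraries, and its log2 difference was -1.98 (SE 0.63) with all libraries and -0.20 (SE 0.35) without the 2. Ccn2, a matrix-associated growth factor gene, was at -1.33 (SE 0.40) and -0.51 (SE 0.38). Plvap, of the diaphragms of fenestrated capillaries, was at -1.05 (SE 0.32) and -0.65 (SE 0.36). Lgals1, the galectin-1 gene, was at -0.91 (SE 0.29) and -0.53 (SE 0.31), and Slitrk6, a neuronal membrane protein gene, at -1.07 (SE 0.32) and -0.48 (SE 0.32). Fibroblast and meningeal genes were lower in 9 of 9 with all libraries (median -0.29) and in 4 of 9 without the 2 (median 0.06), with the collagen gene Col1a2 at -0.36 (SE 0.22) and 0.10 (SE 0.20). The summed level of 5 meningeal markers was 28.9 to 45.3 CPM in TN-783 libraries, 24.5 to 95.1 CPM in all vehicle libraries and 24.5 to 45.8 CPM in 4 of them.

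The genes that led the ranking of higher genes with all libraries kept their sign without vehicle replicates 2 and 4, and none was called. Mier2, of a family of chromatin corepressors, had the smallest p of all. It had 28.5, 38.0 and 40.8 CPM in TN-783 and 20.4, 24.2 and 30.6 CPM in vehicle mice, 6 of 6 TN-783 libraries above the vehicle median, and a log2 difference of 0.56 (SE 0.13, unadjusted p = 0.000250, adjusted p = 1.00), against 0.48 (SE 0.15) without the 2. Bean1, which encodes a partner of the ubiquitin ligase NEDD4, had 11.6, 13.8 and 18.4 CPM in TN-783 and 3.56, 9.09 and 11.6 CPM in vehicle mice. Its lowest TN-783 library and highest vehicle library both round to 11.6 CPM, without overlap, and its difference was 0.75 (SE 0.21) and 0.56 (SE 0.20). Adrm1, a ubiquitin receptor of the proteasome, was at 0.70 (SE 0.21) and 0.71 (SE 0.25), Elk1, a transcription factor that ERK kinases activate, at 0.40 (SE 0.12) and 0.35 (SE 0.14), and Nos1, the neuronal nitric oxide synthase gene, at 0.49 (SE 0.17) and 0.42 (SE 0.18). Kcnip1, a potassium channel subunit, fell from 0.49 (SE 0.16) with all libraries to 0.34 (SE 0.17) without the 2. The remaining leading genes were Tmem215, P2ry1, an ADP receptor, Ppp1r3f, a subunit of a glycogen phosphatase, and Vmn2r93. The last belongs to a family of vomeronasal receptors with near-identical copies, so its value of 1.77 (SE 0.57), or 1.97 (SE 0.72) without the 2, is uncertain. Unadjusted p of these 10 genes was 0.000250 to 0.00775.

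Some of the lower genes kept their sign and much of their size without the 2 libraries, and how many did so was not counted. Dot1l, the methyltransferase of histone H3 lysine 79, had 17.2, 20.9 and 28.0 CPM in TN-783 and 21.8, 31.4 and 36.1 CPM in vehicle mice, with 6 of 6 TN-783 libraries below the vehicle median. Its log2 difference was -0.50 (SE 0.14, unadjusted p = 0.00132) with all libraries and -0.51 (SE 0.16) without the 2, and it was the one gene among the 10 leading lower genes of both fits. Igf1, the insulin-like growth factor 1 gene, had 2.64, 3.63 and 4.21 CPM in TN-783 and 4.37, 5.92 and 7.94 CPM in vehicle mice. All TN-783 libraries lay below all vehicle libraries, and the difference was -0.70 (SE 0.23, unadjusted p = 0.00816) with all libraries and -0.82 (SE 0.25) without the 2. D16Ertd472e was at -0.42 (SE 0.12) and -0.37 (SE 0.14), Nup205, a nuclear pore gene, at -0.70 (SE 0.21) and -0.52 (SE 0.22), and Uvssa, of transcription-coupled DNA repair, at -0.65 (SE 0.20) and -0.57 (SE 0.23). Ocln, a tight-junction gene of the endothelium, was at -0.79 (SE 0.27) and -0.67 (SE 0.31), and its list was lower in 13 of 17 genes (median -0.04) and in 12 of 17 (median -0.09).

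Igf1 and Bean1 were 2 of 8 genes (0.0676%) whose TN-783 and vehicle ranges did not overlap with all libraries. The lower ones numbered 3 (0.0253%), among them Cyyr1, at -0.54 (-0.48 without the 2), and the other higher genes of 5 (0.0422%) were Pald1, at 0.87 (0.84), Neu4, a sialidase gene, at 0.56 (0.47), Tmem268, at 0.55 (0.62), and Sh3glb2, at 0.27 (0.25). Igf1, Bean1 and Neu4 are named by the rule on the smallest p in these same data, and the others were picked after their values were seen. Without vehicle replicates 2 and 4, which leaves 4 vehicle libraries, ranges did not overlap for 58 genes (0.479%), with 30 (0.248%) higher and 28 (0.231%) lower.

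**Figure D5:**
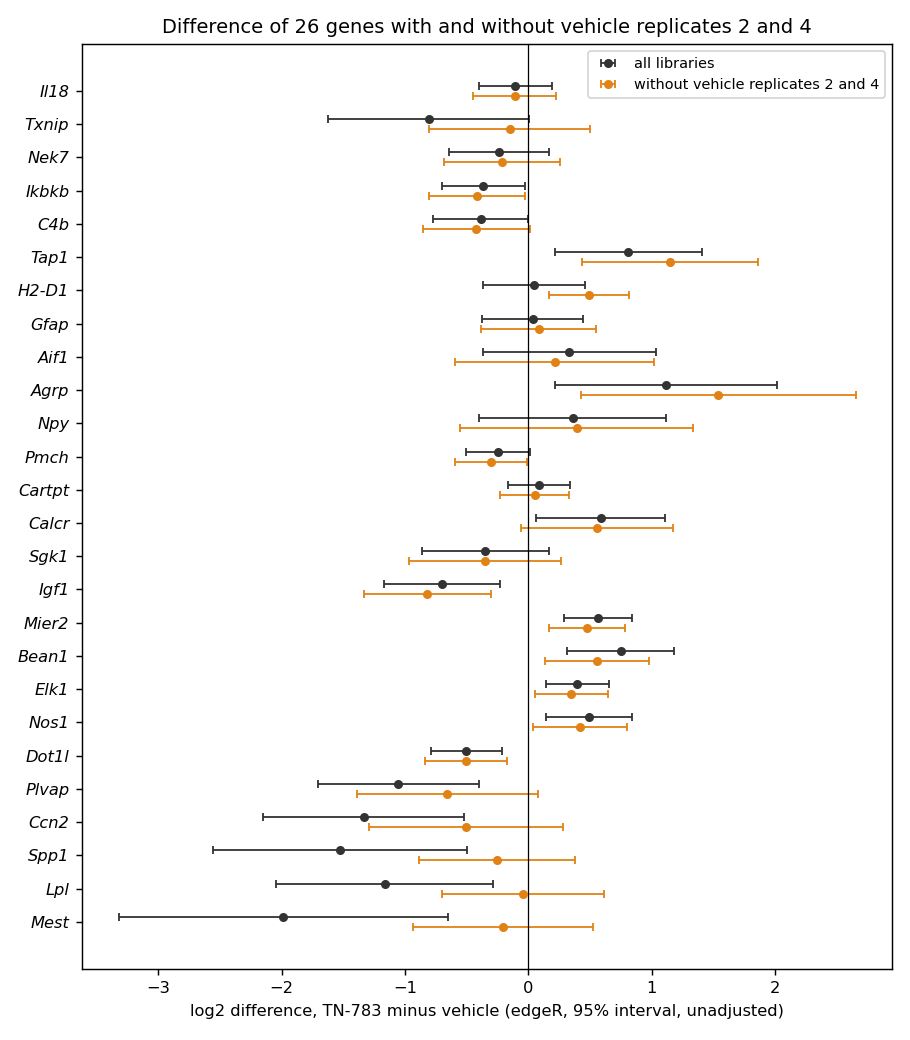
Log2 difference (TN-783 minus vehicle) of 26 genes with its unadjusted 95% confidence interval, with all libraries in black and without vehicle replicates 2 and 4 in orange. Spp1, Lpl and Mest move towards 0 without the 2 libraries, while Igf1, Dot1l, Mier2 and Agrp keep their sign.

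Without vehicle replicates 2 and 4, other genes led, again with no call. Cntrl, a centrosomal gene, had 5.22, 6.14 and 10.5 CPM in TN-783 libraries and 2.32 to 4.88 CPM in the 4 vehicle libraries, a log2 difference of 1.14 (SE 0.31, unadjusted p = 0.00134), against 0.42 (SE 0.30) with all libraries. Med22, a Mediator subunit, was at 0.62 (SE 0.17) against 0.45 with all libraries, Lbr, the lamin B receptor gene, at 0.58 (SE 0.17) against 0.39, Zscan20, a zinc finger gene, at 1.04 (SE 0.30) against 0.56, and Clptm1l at 0.38 (SE 0.12) against 0.21. Stt3a, a catalytic subunit of N-glycosylation, was at 0.51 (SE 0.16) there and at 0.00 (SE 0.20) with all libraries. On the lower side Bhlhe22, a neuronal transcription factor gene, was at -0.69 (SE 0.22), Nrip3 at -0.35 (SE 0.11), Egfr, the EGF receptor gene, at -0.54 (SE 0.18), Nhlrc1, the malin gene, at -0.50 (SE 0.17), Rae1, of messenger RNA export, at -0.44 (SE 0.16), Radil at -0.9997 (SE 0.33) and Ube2ql1 at -0.48 (SE 0.15). With all libraries these 7 genes lay between -0.72 (Radil) and -0.24 (Nrip3). Unadjusted p of the 10 leading lower genes was 0.00421 to 0.00944.

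Markers of tissue next to the hypothalamus also varied between these libraries. Slc17a7, a vesicular glutamate transporter gene of the cortex, had 0.492, 2.88 and 7.83 CPM in TN-783 libraries and 2.44 to 20.4 CPM in the 4 vehicle libraries. Its log2 difference was -1.57 (SE 0.54, unadjusted p = 0.00869) without the 2 and was not tested with all. Tcf7l2, a thalamic transcription factor gene, had 51.9 to 80.4 CPM in TN-783 libraries, against 88.9 to 149 CPM in those 4 and 64.5 and 51.6 CPM in vehicle replicates 2 and 4. The difference was -0.66 (SE 0.23) without the 2 and -0.41 (SE 0.25) with all. Summed over 7 markers of cortex, thalamus and striatum the level was 88.6 to 131 CPM in TN-783 libraries and 129 to 237 CPM in the 4 vehicle libraries, whose lowest value lay below the highest TN-783 one. Vehicle replicates 2 and 4 held 111 and 71.7 CPM, so the range over all 6 vehicle libraries spanned that of TN-783. Much of this sum was Tcf7l2, with a mean of 67.3 CPM in TN-783 libraries and 106 CPM in the 4 vehicle libraries. Of the 7 markers of these brain regions, 3 were tested with all libraries. The part of such tissue in the genes that led without vehicle replicates 2 and 4 was not tested. The haemoglobin gene Hbb-bs had 516, 560 and 932 CPM in TN-783 and 132, 601 and 968 CPM in vehicle mice (log2 difference 0.08, SE 0.35, with all libraries and 0.54, SE 0.36, without the 2; its reads can be split with near-identical copies). Ttr, the transthyretin gene of the choroid plexus, had 0.492, 4.30 and 14.98 CPM in TN-783 and 0.611, 7.12 and 43.3 CPM in vehicle mice, and differed by -1.23 (SE 0.78) without the 2, the fit in which it was tested. The X-linked RNA Xist, which coats the inactive X chromosome of female cells, had 3.05, 10.1 and 35.2 CPM in TN-783 and 0.463, 2.21 and 26.6 CPM in vehicle mice, while the Y-linked gene Ddx3y had 152 to 426 counts in each of the 18 libraries.

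Set beside lean mice, the TN-783 medians of some of these genes lay on the lean side of vehicle. Both differences share the vehicle libraries, so values are given side by side without a test of their relation. All of these genes were picked by rules that use p between TN-783 and vehicle, and Agrp was a fixed gene as well. Such rules favour genes with extreme vehicle values, which can by itself put lean on the TN-783 side. How many of the named genes lay on the lean side was not counted. Agrp had a median of 8.26 CPM in TN-783, 3.53 CPM in vehicle and 11.4 CPM in lean mice, and the vehicle minus lean difference was -1.38. Calcr had medians of 18.0 CPM in TN-783, 12.3 CPM in vehicle and 22.4 CPM in lean mice, and that difference was -0.76. Mier2 had medians of 38.0 CPM in TN-783, 24.2 CPM in vehicle and 36.4 CPM in lean mice. Plvap had medians of 4.28 CPM in TN-783, 7.08 CPM in vehicle and 2.88 CPM in lean mice. Its vehicle mean was 7.48 CPM with all libraries and 5.72 CPM without vehicle replicates 2 and 4. In the edgeR test of vehicle minus lean with all libraries, Agrp, Calcr, Mier2 and Plvap were not called. Their adjusted p was 0.301, 0.318, 0.207 and 0.207 in that order. Igf1 departed from both, with medians of 3.63 CPM in TN-783, 5.92 CPM in vehicle and 6.41 CPM in lean mice. For Sgk1 the TN-783 median of 65.7 CPM stood nearer to the 84.0 CPM of vehicle than to the 23.7 CPM of lean mice. Sgk1 was called in the edgeR test of vehicle minus lean with all libraries (adjusted p = 0.0315). It was not called there without vehicle replicates 2 and 4 (adjusted p = 0.0813).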

How the data were processed

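Per the labels' protocols, RNA of 18 hypothalami was primed with oligo dT and sequenced near its 3' end, in libraries that carry molecular identifiers and were amplified for 18 cycles. The samples are independent biological ones according to the labels. Build GRCm39 and the tools Salmon 1.10.1, STAR 2.7.9a, R 4.5.1 and edgeR 4.6.2 stand in the submitters' processing notes, without roles. The sources used here do not give the annotation, the use of strand or how identifiers were collapsed. Estimated counts of 56980 features were deposited, 19684 of them 0 throughout, and 12.0% of values were not whole. The deposited scaling factors are a ratio per library, 0.936 to 1.08, and the deposited log2 CPM values followed from them and the counts to within 1.6e-14. The RNA integrity score is per the labels.

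Counts were rounded, filtered with edgeR's filterByExpr (minimum count 10) and fitted for all 3 groups together by the robust quasi-likelihood method of edgeR 4.0.16 in R 4.3.3 after TMM scaling, once with all 18 libraries and once without vehicle replicates 2 and 4. The threshold was a Benjamini-Hochberg adjusted p of 0.05 over all tested genes. Standard errors are the log2 difference divided by the square root of F. CPM uses counts in tested genes and TMM. The code was tested on simulated data.

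The groups, the 2 libraries left out, the 46 gene lists and the named genes were chosen with earlier results of these data known. Named genes are 12 fixed ones, the 10 of smallest p per direction and fit without those that have only a model name, the 2 of smallest p per list with at least 4 tested genes, and Prl, Gh, Hbb-bs and Ttr. Not all of these are printed, and results of a few genes are not reported here. Other genes are list members, or marked as chosen after their values were seen. Lists are described by counts and medians without a test. Alternatives were DESeq2 1.42.0, other scaling and filters, the 2 groups alone, a replicate block, RNA integrity or 1 surrogate variable (sva 3.50.0) as a covariate, weighted voom in limma 3.58.1, and the omission of any single library. No coordinates of GRCm39 are printed. Promoter sequences are from RefSeq on GRCm38.p6 and serve as sequence only. No 2 libraries were identical.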

Additional observations from a re-analysis of the deposited data

Results flagged for a closer look

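In 23 of 232 groups of 6 values (9.91%) one library stood apart from the other 5, with a gap to its nearest neighbour that exceeded Dixon's 95% critical value for the group's range. About 1 in 20 groups is flagged by chance. In TN-783 libraries these were Gh at 22.9 CPM, Xist at 35.2 CPM, Nup205 at 14.98 CPM, Il18 at 25.0 CPM and the total of 3589654 counts, all in replicate 6; Hbb-bs at 932 CPM, Errfi1 at 19.7 CPM, Kcnip1 at 16.7 CPM and Nhlrc1 at 12.3 CPM in replicate 1; Cntrl at 10.5 CPM and Med22 at 13.7 CPM in replicate 3; Mobp at 542 CPM and P2ry1 at 11.3 CPM in replicate 4; and Bhlhe22 at 7.23 CPM in replicate 5. Il18, Kcnip1, Nhlrc1, Med22, P2ry1 and Bhlhe22 were low there and the others high.

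In vehicle libraries H2-D1 was high at 56.5 CPM in replicate 2, and in replicate 4 Bean1 was low at 3.56 CPM, Cartpt low at 56.5 CPM and Mc4r high at 6.68 CPM. These are the libraries with pituitary transcripts. Aim2 at 7.21 CPM and Ttr at 43.3 CPM were high in replicate 5, Casp1 at 2.42 CPM and Xist at 26.6 CPM in replicate 3 and Sgk1 at 113 CPM in replicate 6. Prl, Gh, Cga and Pomc were not among the vehicle values singled out, because 2 libraries are high together.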

How the results depend on the processing

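The count of called genes, 0 in both fits, stayed at 0 under DESeq2, RLE scaling, a filter of at least 1 CPM in 6 libraries, the 2 groups alone, RNA integrity or 1 surrogate variable as a covariate, weighted voom, and the omission of any single library (range 0 to 0). With no filter on low counts it was 6 with all libraries (2 of them features with only a model name, higher, and Pax7, Lcn2, Pabpc1l and a model-named feature, lower) and 4 without vehicle replicates 2 and 4, among them Agrp, higher, and Slc17a7, lower (adjusted p = 0.0434). None of the lower features called with all libraries was called without the 2. Pax7 had 61 and 43 counts in vehicle replicates 2 and 4, 4 to 11 in the other vehicle libraries and 2 to 16 in TN-783. Pabpc1l had 32 and 16 counts in those 2, 4 to 7 in the other vehicle libraries and 2 to 7 in TN-783. With the replicate number as a block it was 0 with all libraries and 1 without the 2, where Cga was called (3.06, adjusted p = 0.0131). The numbers are not said to pair the animals. The correlation of same-numbered deviations was -0.292 to -0.0411, and 0 of 6 correlated best with their own number. Such correlations cannot tell whether same-numbered animals were handled together. The block changed no other call. The cause of these differences was not tested. The share of higher genes among those with an unadjusted p under 0.05 was 55.0% without the 2 libraries.

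Of log2 differences of the genes named, 2019 values under alternatives kept their sign and 53 did not. Without vehicle replicates 2 and 4 the sign turned for Btg2 (0.14), Cga (2.87), Col1a2 (0.10), Gh (1.64), Glp1r (0.088), Pomc (1.41), Prl (0.88), Stt3a (0.51) and Tapbp (0.049). Genes near 0 turned elsewhere: Stt3a under DESeq2 (0.0088), no filter (0.024), the replicate block (0.061) and voom (0.17), Glp1r with no filter (0.021) and the block (0.025), and with RNA integrity as a covariate Gal (-0.019), Mc4r (-0.0032) and Tsc22d3 (0.044). Leaving out each library gave -0.0048 to 0.16 for C1qa, -0.030 to 0.31 for C1qc, -0.051 to 0.15 for Gal, -0.046 to 0.13 for Gfap, -0.22 to 0.11 for Glp1r, -0.037 to 0.36 for H2-D1, -0.13 to 0.29 for Hbb-bs, -0.073 to 0.18 for Mc4r, -0.13 to 0.21 for Stt3a and -0.11 to 0.0089 for Tsc22d3. Of list medians 874 values moved by less than the spread between replicates and 6 by more.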

Other observations

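Other lists held no called gene in either fit. Tanycyte and ependymal genes, of the cells that line the third ventricle, were higher in 10 of 14 in both fits, with medians of 0.04 with all libraries and 0.11 without vehicle replicates 2 and 4. Mural cell genes were higher in 2 of 8 (median -0.08) and in 4 of 8 (median -0.06). Nuclear long noncoding RNAs were higher in 2 of 10 (median -0.12) and in 3 of 10 (median -0.04), and imprinted genes in 6 of 18 (median -0.05) and in 8 of 18 (median -0.02). Proteasome genes split 12 and 12 with all libraries (median 0.00) and 11 higher and 13 lower without the 2 (median -0.02). Genes of cholinergic neurons and other brain regions were higher in 2 of 8 (median -0.11) and in 3 of 11 (median -0.24), and choroid plexus genes in 1 of 3 (median -0.01) and in 1 of 4 (median -0.24). Blood genes were higher in 4 of 6 in both fits, with medians of 0.10 and 0.52, the second being the highest list median of that fit, and their 5 markers summed to 1182 to 2144 CPM in TN-783 libraries and 320 to 2256 CPM in vehicle libraries, or 320 to 1650 CPM without the 2. Lcn2, the lipocalin-2 gene, an inflammatory marker of glia and endothelium, had 0 counts in all TN-783 libraries and 23 over the vehicle libraries. Of these 17 were in replicate 2 and 3 in replicate 4, the libraries with pituitary transcripts, and 3 in replicate 6. The other vehicle libraries also had 0, and lean libraries had 0 to 4.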
